A study of Mus musculus with 4 samples.

Results

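The salivary duct transport genes *Cftr*, *Scnn1a*, *Scnn1b*, *Scnn1g*, *Slc9a3* and *Slc13a2* are described here, 6 of the 32285 genes listed in a single-cell RNA sequencing (scRNA-seq) matrix of the mouse submandibular gland (SMG) and sublingual gland (SLG). They were chosen by gene symbol, each symbol matched 1 gene, and they are described across duct subtypes, acinar cells and the other cell classes. The glands came from wild-type female C57BL/6N mice aged 6 to 8 weeks in a physiological, untreated state, and both glands were dissociated together with collagenases, hyaluronidase, dispase and pancreatin. The labels name 4 samples and 2 mice, but all barcodes carry 1 suffix, so the sample, mouse and gland of a cell are not known and the matrix was treated as 1 sample with no replicate. Every interval given below is a 95% interval that covers counting error only, and no test between conditions was possible.

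Acinar cells secrete a plasma-like fluid, and the duct epithelium takes NaCl back from it as it flows towards the mouth. Sodium enters duct cells through the epithelial sodium channel ENaC, which is built from the alpha, beta and gamma subunits encoded by *Scnn1a*, *Scnn1b* and *Scnn1g*, and chloride passes through the cAMP-gated anion channel encoded by *Cftr*. *Slc9a3* encodes the apical sodium-proton exchanger NHE3, and *Slc13a2* encodes NaDC1, which carries sodium together with citrate and other dicarboxylates and is best known from the kidney and intestine. Mouse SMG ducts begin as intercalated ducts, continue as granular convoluted ducts filled with kallikreins, and end as striated and excretory ducts, and scattered Ascl3- and Foxi1-positive cells in them are called ionocytes.

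On GRCm38, the build that the submitters name as mm10, *Cftr* (ENSMUSG00000041301) lies on chromosome 6 from 18170687 to 18322768 and *Scnn1a* (ENSMUSG00000030340) on the same chromosome from 125320659 to 125344943. *Scnn1g* (ENSMUSG00000000216) lies on chromosome 7 from 121734479 to 121768475, and *Scnn1b* (ENSMUSG00000030873) follows it from 121865038 to 121918514, on the same strand and 96562 bases downstream. *Slc13a2* (ENSMUSG00000001095) lies on chromosome 11 from 78397087 to 78422217 and is the only member on the minus strand. *Slc9a3* (ENSMUSG00000036123) lies on chromosome 13 from 74121457 to 74169442. All 6 are annotated as protein-coding in GENCODE M21. *Cftr* overlaps the antisense gene *Gm15592*, *Scnn1b* overlaps *Cog7* on the other strand and *Slc13a2* overlaps the antisense gene *Slc13a2os*. *Cftr* also overlaps the processed pseudogene *Gm15595* on its own strand, which is not among the genes of the matrix. *Gm15592* and *Slc13a2os* had 0 UMIs in the ionocyte-like, Slit2-led, kallikrein duct-like and Esp4-led cells described below, and *Cog7* had 38, 46, 19 and 15.

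The promoter windows of 4 members are shown because these genes make up the pair of patterns in the results, with *Cftr* and *Scnn1b* on one side and *Slc9a3* and *Slc13a2* on the other. Each window runs from 250 bases before to 50 bases after the annotated start, 5′ to 3′ on the gene's own strand, as RefSeq gives it on GRCm38.p6. The windows lie at chr6:18170437-18170736 (plus strand) for *Cftr*, chr7:121864788-121865087 (plus) for *Scnn1b*, chr13:74121163-74121462 (plus) for *Slc9a3* and chr11:78422185-78422484 (minus) for *Slc13a2*. Capitals mark a match to one of the motifs searched.
Cftr: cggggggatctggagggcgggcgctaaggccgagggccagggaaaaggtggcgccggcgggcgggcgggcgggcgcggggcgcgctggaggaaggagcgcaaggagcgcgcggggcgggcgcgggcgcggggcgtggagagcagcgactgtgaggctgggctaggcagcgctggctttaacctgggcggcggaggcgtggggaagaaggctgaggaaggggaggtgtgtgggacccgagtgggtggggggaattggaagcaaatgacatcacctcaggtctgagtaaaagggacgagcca
Scnn1b: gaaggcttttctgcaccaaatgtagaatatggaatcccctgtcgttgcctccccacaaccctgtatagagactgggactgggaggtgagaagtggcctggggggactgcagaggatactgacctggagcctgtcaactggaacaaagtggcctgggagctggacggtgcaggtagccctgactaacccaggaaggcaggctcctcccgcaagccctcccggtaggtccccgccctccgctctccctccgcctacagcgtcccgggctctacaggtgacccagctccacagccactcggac
Slc9a3: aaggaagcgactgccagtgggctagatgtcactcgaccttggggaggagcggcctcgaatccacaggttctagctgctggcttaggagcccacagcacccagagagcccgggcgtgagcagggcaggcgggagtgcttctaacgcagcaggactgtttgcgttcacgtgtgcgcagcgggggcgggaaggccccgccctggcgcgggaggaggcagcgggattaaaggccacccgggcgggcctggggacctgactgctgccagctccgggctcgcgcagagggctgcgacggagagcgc
Slc13a2: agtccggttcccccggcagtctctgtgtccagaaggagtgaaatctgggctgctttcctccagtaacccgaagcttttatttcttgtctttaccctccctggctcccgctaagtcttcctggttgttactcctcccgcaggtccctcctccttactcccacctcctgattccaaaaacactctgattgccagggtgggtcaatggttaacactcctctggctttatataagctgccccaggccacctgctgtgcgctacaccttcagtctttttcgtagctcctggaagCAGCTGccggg

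The *Cftr* window is 71.3% G and C with 31 CpG dinucleotides, and the *Slc9a3* window 68.7% with 25. The *Scnn1b* window is 61.7% G and C with 10 CpG dinucleotides, and that of *Slc13a2*, the lowest, is 54.3% with 8. Over the 32851 windows of the table the medians are 52.7% and 7, and all 4 windows lie above both. The forkhead core TGTTTAC (3.65% of all windows), the E-box CAGCTG (16.3%), the steroid receptor half-site AGAACA (19%) and the grainyhead-type AACCNGTT (2.09%) were searched on both strands. Among the 5 members with a window, *Scnn1g* included, the 1 match was the E-box of *Slc13a2*, 39 bases after the start. *Scnn1a* has no entry.

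A UMI (unique molecular identifier) marks 1 captured RNA molecule, and levels are given per 10000 UMIs: the molecules of a gene counted in all cells of a group, over all molecules of that group. Over 15707 cells there were 864 UMIs of *Cftr*, 1667 of *Scnn1a*, 2579 of *Scnn1b*, 173 of *Scnn1g*, 436 of *Slc9a3* and 380 of *Slc13a2*. The highest number in 1 cell was 8, for *Scnn1b*. Cells had a median of 2608 UMIs and 689 genes, and 10 secretory transcripts led by *Mucl2* held 75.5% of all UMIs. Of 22 clusters, 5 clusters of luminal duct, basal and *Smgc*-rich epithelium with 3167 cells (20.2%) were clustered again. They gave 10 groups, which are called duct groups here. The names were rebuilt from marker lists and leading genes, and neither the members nor the 57 transport genes below took part in the clustering. The low-gene clusters, 4 clusters with medians of 323 to 435 genes per cell, were left unnamed.

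The duct groups differed in their markers as follows. Ionocyte-like cells (995) had 9 of 10 ionocyte markers, among them *Ascl3* and *Foxi1*. Kallikrein duct-like cells (472) had 14 of 16 granular convoluted duct markers and 1 ionocyte marker. A Slit2-led group of 473 cells had 13 kallikrein and 8 ionocyte markers together and a median of 4656 UMIs, against 2446 in ionocyte-like and 2778 in kallikrein duct-like cells. *Slit2*, a leading gene of this group, does not mark it alone. Its level was 2.14 there, 2.62 in kallikrein duct-like cells and 2.13 in the Sprr1a-led group named below. Whether droplets of the Slit2-led group hold more than 1 cell was not tested. Of its cells, 0.846% were among the 10% of all cells with the highest doublet scores. Esp4-led cells (359) had 10 luminal duct markers and 4 intercalated duct markers, *Gstt1*, *Kit*, *Nkd2* and *Sox9*, with no kallikrein marker. Basal duct-like cells (155) had 9 basal markers such as *Krt5* and *Trp63*. The other groups are called by a leading gene: Ecrg4-led (275 cells, with 5 myoepithelial and 11 luminal duct markers, 10.5% of them among the highest doublet scores), Smgc-led (232), Sprr1a-led (143), Ifit1-led (34) and Duox2-led (29). Smgc-led cells had 7 luminal duct markers and also 4 serous acinar markers, *Aqp5*, *Cldn10*, *Lman1l* and *Pip*. They are counted with the duct groups although their markers are mixed, as are Ecrg4-led cells.

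The 6 genes fell into 2 patterns. *Cftr* and the 3 ENaC subunit genes had higher levels in ionocyte-like and Slit2-led cells than in Esp4-led cells, and the ENaC genes had them in kallikrein duct-like cells too. *Slc9a3* and *Slc13a2* were near 0 in those cells and highest in the Esp4-led cells, where in turn *Scnn1g* had no UMI and *Scnn1b* was 36.6 times lower than in ionocyte-like cells. The 10 duct groups held 78.7% of all *Cftr* UMIs, 72.2% of *Scnn1a*, 76.7% of *Scnn1b*, 74.6% of *Scnn1g*, 80.0% of *Slc9a3* and 76.6% of *Slc13a2*. They held 20.2% of all cells and 9.30% of all UMIs. The latter share is pushed down by the 10 secretory transcripts, which held 75.5% of all UMIs. A share over the other genes was not computed.

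**Figure D1:**
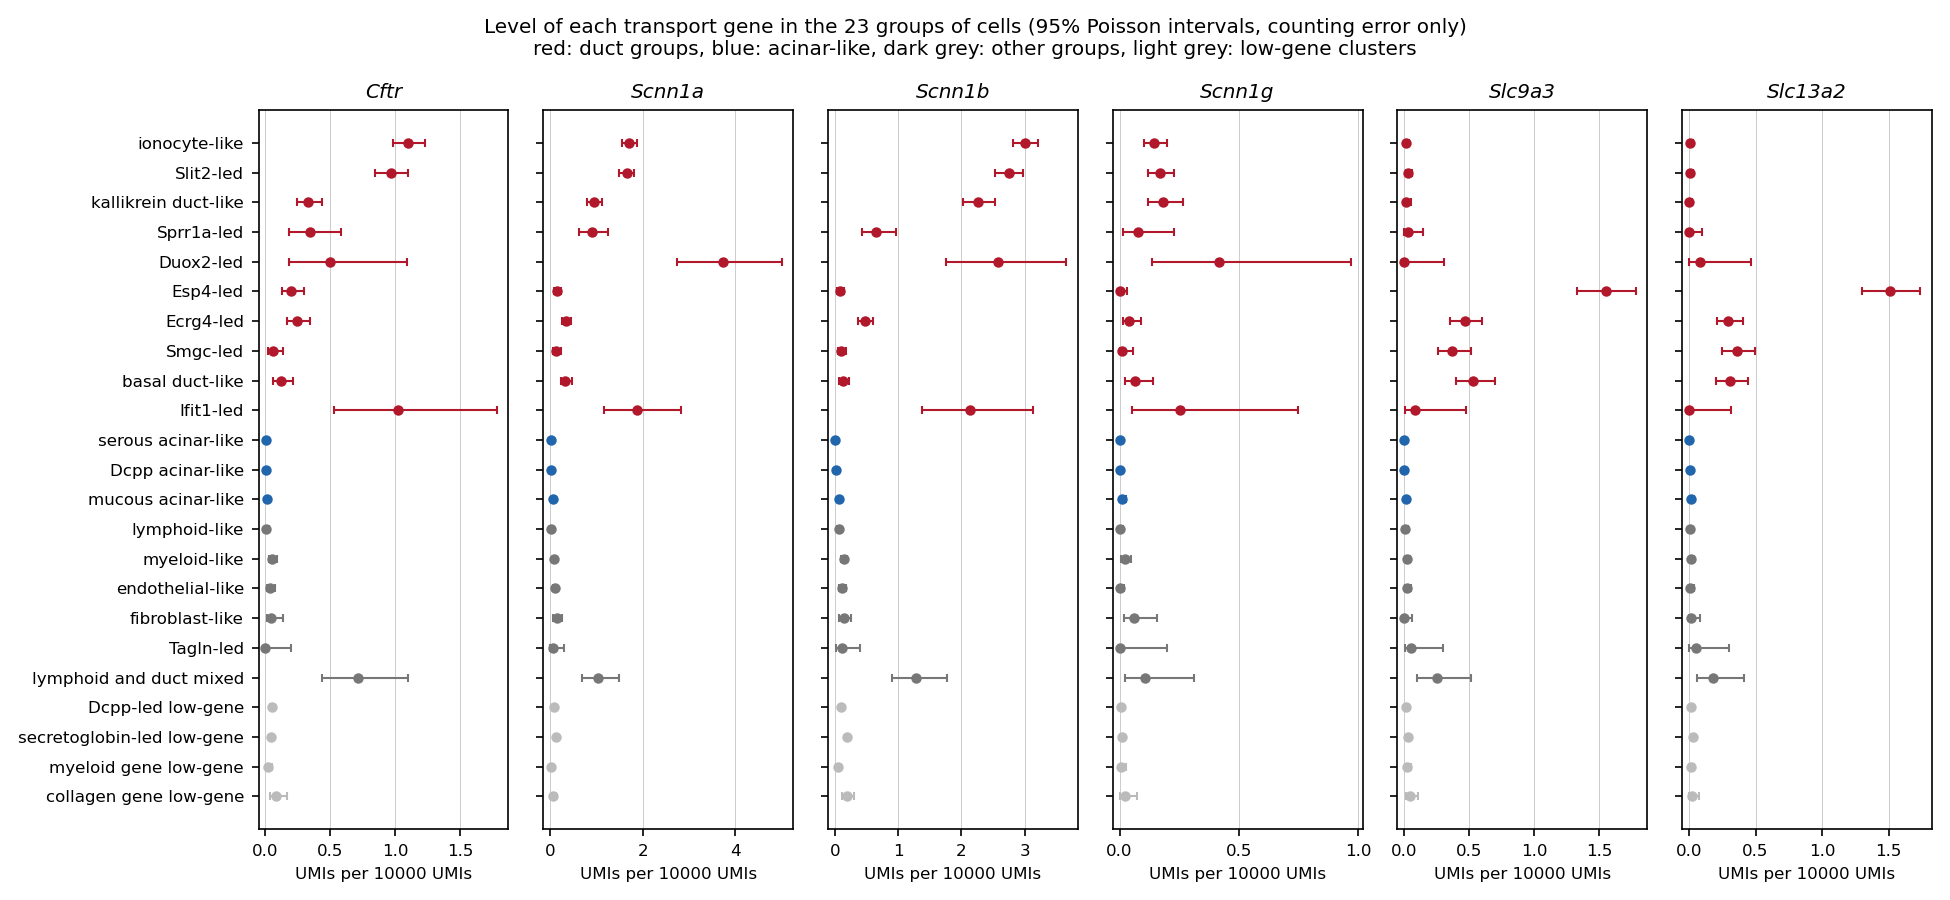
Level of each gene, in UMIs per 10000 UMIs (x axis, linear, with its own range for each gene), in the 23 groups of cells (y axis), with bars for exact Poisson 95% intervals that cover counting error only. *Slc9a3* and *Slc13a2* peak in Esp4-led cells at 1.55 and 1.51, whereas *Cftr* and *Scnn1b* are at 0.197 and 0.0823 there and at 1.10 and 3.01 in ionocyte-like cells.

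*Scnn1b*, the beta subunit gene, stood at 3.01 UMIs per 10000 in ionocyte-like cells (interval 2.81 to 3.22, 814 UMIs), 2.75 in Slit2-led cells (2.54 to 2.97) and 2.27 in kallikrein duct-like cells (2.03 to 2.53). It was 2.58 in Duox2-led and 2.13 in Ifit1-led cells. From ionocyte-like cells down to Ifit1-led cells no neighbour in this order differed from the next beyond counting error, while the ends of the main 3 did: ionocyte-like cells were 1.33-fold above kallikrein duct-like cells (1.17 to 1.51). The next group, Sprr1a-led, was at 0.657 and the Ecrg4-led group at 0.471. Basal duct-like, Smgc-led and Esp4-led cells formed the low end at 0.127, 0.0922 and 0.0823, from 12, 9 and 10 UMIs.

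*Scnn1a*, the alpha subunit gene, was at 1.71 in ionocyte-like (1.56 to 1.87, 463 UMIs) and 1.65 in Slit2-led cells, a ratio of 1.04 (0.905 to 1.19). Kallikrein duct-like cells had 0.947 and Sprr1a-led cells 0.894, and both were below the first pair. The highest level was in the 29 Duox2-led cells, named for the H2O2-producing oxidase *Duox2*, at 3.74 (2.73 to 5, 45 UMIs), which was 2.19-fold above ionocyte-like cells (1.57 to 2.97). *Scnn1a* was at 0.329 in basal duct-like cells (31 UMIs), 2.35-fold above Esp4-led cells (1.26 to 4.53). For *Scnn1b* the same ratio was 1.55 (0.613 to 4), so the 2 genes could not be told apart in it.

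*Scnn1g*, the gamma subunit gene, was sparse. Its level was 0.144 in ionocyte-like cells (0.103 to 0.197, 39 UMIs), 0.168 in Slit2-led cells and 0.181 in kallikrein duct-like cells (27 UMIs), and these did not differ beyond counting error. No UMI was found in 359 Esp4-led cells, where a count of 0 allows up to 0.0247 per 10000 by a floor of 3 UMIs (0.0303 by the exact Poisson limit). In the order of levels over duct and acinar groups no *Scnn1g* neighbours could be separated at this depth.

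*Cftr* followed the ENaC genes but with a steeper step inside the kallikrein and ionocyte cells. Its level was 1.10 in ionocyte-like cells (0.980 to 1.23, 298 UMIs), 0.964 in Slit2-led cells (0.843 to 1.10) and 0.329 in kallikrein duct-like cells (0.243 to 0.435, 49 UMIs). Kallikrein duct-like cells were 1.67-fold above Esp4-led cells, with an interval that reached 1 (1 to 2.84). Ionocyte-like cells were 3.35-fold above kallikrein duct-like cells for *Cftr* (2.47 to 4.63), against 1.81-fold for *Scnn1a* (1.49 to 2.20) and 1.33-fold for *Scnn1b*. Within the same cells the ratio of *Cftr* to *Scnn1b* UMIs, which does not depend on the total, was 0.366 in ionocyte-like cells (0.320 to 0.419), 0.351 in Slit2-led cells (0.3 to 0.408) and 0.145 in kallikrein duct-like cells (0.105 to 0.196). Esp4-led cells kept some *Cftr*, at 0.197 (0.126 to 0.294, 24 UMIs), 0.812 times the level of Ecrg4-led cells (0.458 to 1.42), and their ratio of *Cftr* to *Scnn1b* UMIs was 2.40 (1.11 to 5.62).

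Over all duct cells, *Cftr* was higher in those with a *Foxi1* or *Ascl3* molecule, which largely repeats the difference between groups. Of such cells, 861 were ionocyte-like and 409 Slit2-led. Of the duct cells, 1452 had a UMI of *Foxi1* or *Ascl3*, transcription factor genes of ionocytes, and 1715 had neither, at median depths of 2953.5 and 2711 UMIs. The *Cftr* level was 0.951 in the first (0.871 to 1.04) and 0.262 in the second (0.223 to 0.305). *Scnn1b* was at 2.66 and 0.859 in the same cells, and *Slc9a3* showed the opposite order with 0.0551 and 0.515. Inside the kallikrein duct-like group, the 51 cells with a *Foxi1* or *Ascl3* UMI had a *Cftr* level of 0.768 (0.439 to 1.25, 16 UMIs) and the other 421 cells 0.258 (0.177 to 0.362). The 51 cells were deeper, with a median of 3361 against 2711 UMIs. For *Scnn1b* both were alike within counting error, at 2.35 (1.74 to 3.11) and 2.26 (2.00 to 2.53). Inside the ionocyte-like group the 861 cells with and the 134 without such a UMI had *Cftr* levels of 1.07 and 1.32 with overlapping intervals. In the Slit2-led group the 409 cells with and the 64 without were at 0.992 (0.862 to 1.14) and 0.746 (0.456 to 1.15), which overlap too. The part of droplets with more than 1 cell in these values was not tested.

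*Slc9a3* was at 1.55 UMIs per 10000 in Esp4-led cells (1.33 to 1.78, 188 UMIs). Basal duct-like cells followed at 0.531 (0.394 to 0.700), Ecrg4-led cells at 0.463 and Smgc-led cells at 0.369 (0.258 to 0.511), and these 3 neighbours did not differ beyond counting error. The step from Esp4-led to basal duct-like cells was 2.91-fold (2.12 to 4.06). In 995 ionocyte-like cells there were 3 UMIs and in 472 kallikrein duct-like cells 2 UMIs, at 0.0111 and 0.0134, so the Esp4-led level was 139 times the ionocyte-like level (47.0 to 682). *Esp4* itself was at 9.96 in Esp4-led, 2.94 in basal duct-like, 1.66 in Ecrg4-led and 2.08 in Smgc-led cells. Cells of these groups with a *Slc9a3* or *Slc13a2* UMI were deeper than the others. Their medians were 10298 against 3832.5 UMIs in basal duct-like, 8212 against 2398 in Ecrg4-led and 6366 against 3084 in Smgc-led cells. In Esp4-led cells they were 2933 against 2008. The part of droplets with more than 1 cell in these levels was not tested.

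*Slc13a2* had nearly the same order as *Slc9a3*. Esp4-led cells were at 1.51 (1.30 to 1.74, 183 UMIs), Smgc-led cells at 0.359, basal duct-like cells at 0.308 and Ecrg4-led cells at 0.296, and the Esp4-led level was 4.20-fold above that of Smgc-led cells (2.91 to 6.21). The gene had 2 UMIs in ionocyte-like cells and 0 in kallikrein duct-like cells, where 3 UMIs would be 0.0201 per 10000. The ratio of *Slc13a2* to *Slc9a3* UMIs was 0.973 in Esp4-led cells (0.790 to 1.20) and 0.972 in Smgc-led cells (0.593 to 1.59). It was 0.580 in basal duct-like (0.354 to 0.935) and 0.639 in Ecrg4-led cells (0.416 to 0.971), and all these intervals overlap. When the genes with at least 20 UMIs in Esp4-led cells were ranked by fold over all other cells, *Slc13a2* came 2 and *Slc9a3* 3 of 5835, behind *Esp4*, which encodes an exocrine gland-secreted peptide. These ranks describe the group and are no test of it.

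**Figure D2:**
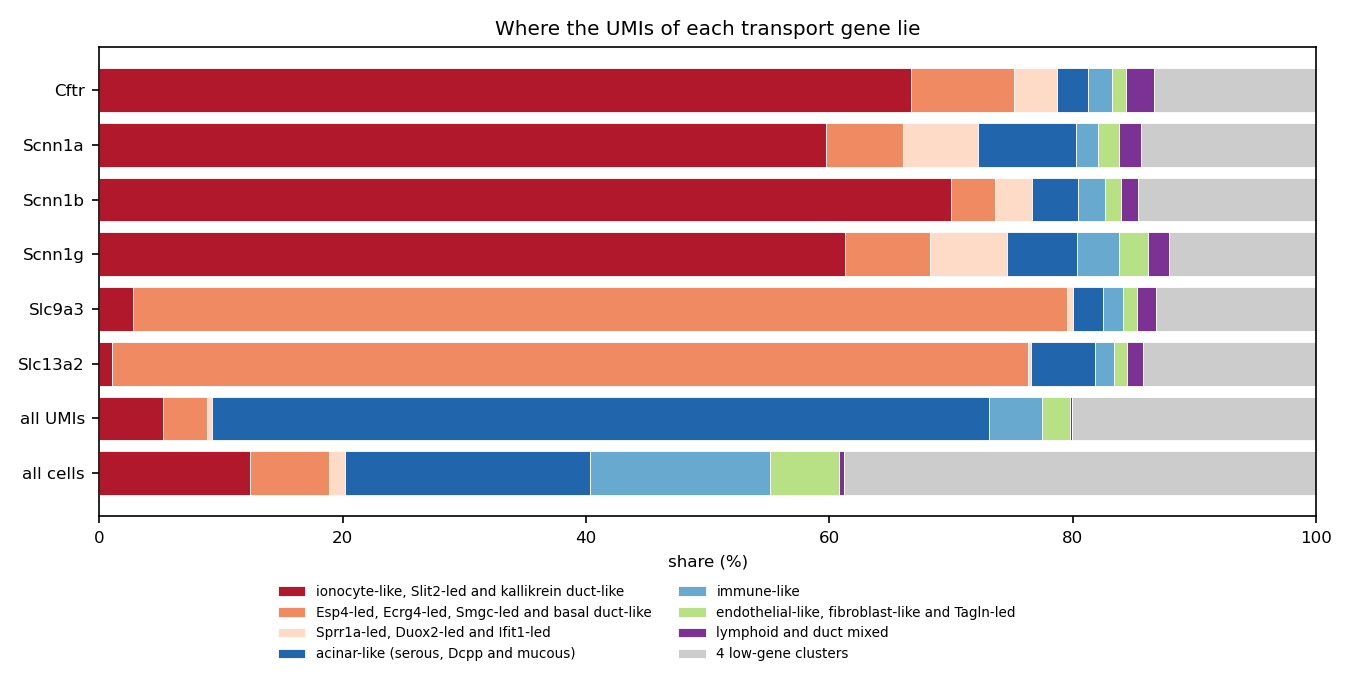
Share of the UMIs of each gene (bars, x axis in percent) in 8 classes of cells, with the share of all UMIs and of all cells below. Ionocyte-like, Slit2-led and kallikrein duct-like cells hold 66.7% of *Cftr* and 70.0% of *Scnn1b* UMIs but 2.75% of *Slc9a3* and 1.05% of *Slc13a2* UMIs. Acinar-like cells, 20.1% of all cells, hold at most 8.10% of any member. Their 63.8% of all UMIs is raised by the 10 secretory transcripts, which hold 75.5% of all UMIs.

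The split was also seen without dividing by total UMIs, over groups that were joined after their levels had been seen, which partly fixes its direction. Ionocyte-like, Slit2-led and kallikrein duct-like cells together, 12.4% of all cells, held 66.7% of *Cftr* UMIs (576 of 864), 59.7% of *Scnn1a*, 70.0% of *Scnn1b* and 61.3% of *Scnn1g* UMIs. They held 12 of 436 *Slc9a3* UMIs and 4 of 380 *Slc13a2* UMIs. Esp4-led, Ecrg4-led, Smgc-led and basal duct-like cells, 6.5% of all cells, held 76.8% of *Slc9a3* and 75.3% of *Slc13a2* UMIs. The low-gene clusters held 12.1% to 14.6% of the UMIs of each member, with 38.8% of the cells, and the 61 cells of the mixed lymphoid and duct cluster held 1.32% to 2.31%, 82% of which were among the highest doublet scores.

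In single cells the sets of genes were largely seen apart. At least 1 UMI of *Cftr* or an ENaC gene was found in 1743 of 3167 duct cells, at least 1 UMI of *Slc9a3* or *Slc13a2* in 325, and both in 60. *Cftr* or ENaC UMIs were found in 18.5% of the *Slc9a3* or *Slc13a2* positive cells (14.4% to 23.1%, median depth 4308 UMIs) and in 59.2% of the others (57.4% to 61%, median depth 2775.5 UMIs). With every cell thinned to 1000 UMIs the numbers were 897, 134 and 7 cells, and the shares 5.22% (2.13% to 10.5%) and 29.3%. Within each of the 10 groups the intervals of both shares overlapped. At full depth, ionocyte-like, Slit2-led and kallikrein duct-like cells held 4, 7 and 2 *Slc9a3* or *Slc13a2* positive cells. Sprr1a-led, Duox2-led and Ifit1-led cells held 1 each. So few cells give very wide intervals, and the overlap says little in these groups. Among Esp4-led cells the shares were 10.5% and 10.7% at full depth (medians of 2933 and 2008 UMIs), and 5.62% and 3.70% after thinning. At full depth they were 31.4% and 21.7% among basal duct-like cells and 14.3% and 8.12% among Smgc-led cells, with deeper cells in the first of each pair. Of the 60 cells with both, 20 were Esp4-led, 13 Ecrg4-led and 11 basal duct-like.

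**Figure D3:**
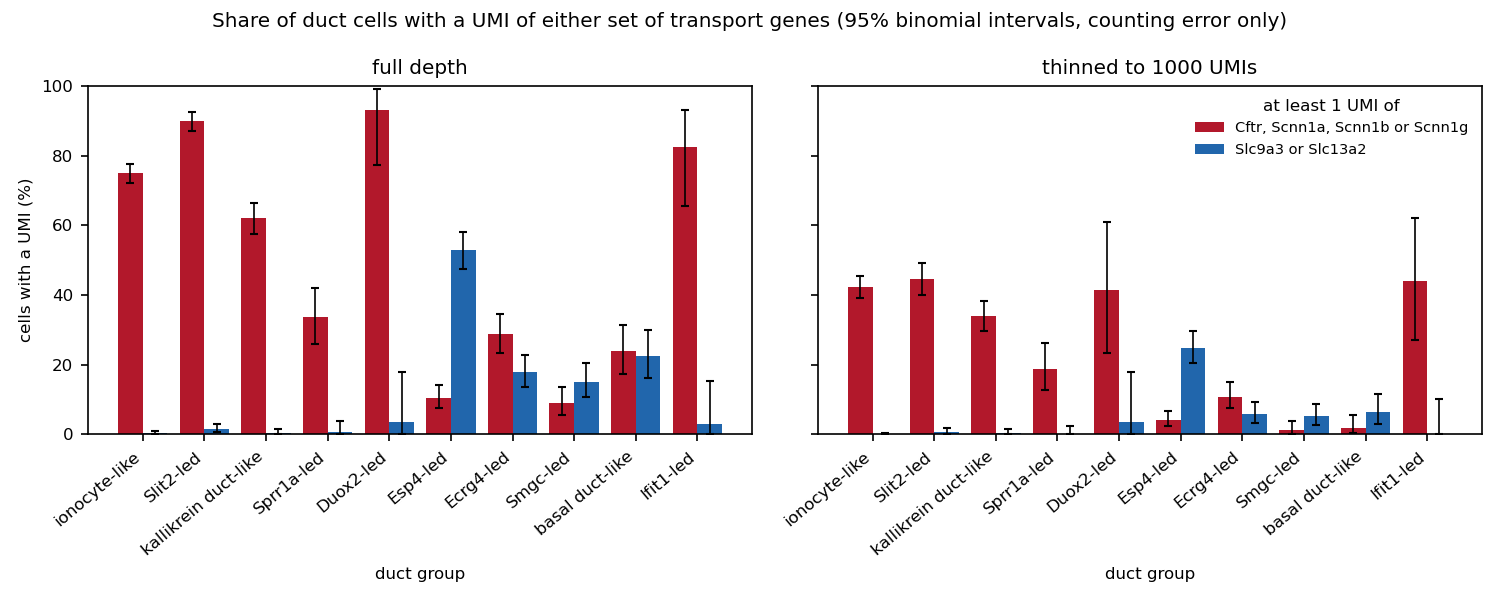
Share of cells (y axis, percent) with at least 1 UMI of *Cftr*, *Scnn1a*, *Scnn1b* or *Scnn1g* (red) and of *Slc9a3* or *Slc13a2* (blue) in the 10 duct groups, at full depth (left) and with each cell thinned to 1000 UMIs (right), with exact binomial 95% intervals. In Esp4-led cells the shares are 10.6% and 52.9% at full depth, and in ionocyte-like cells 75% and 0.402%.

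Shares of cells with a UMI depend on depth, so they are given beside the thinned values and beside lymphoid-like cells (1234 cells, median 1866.5 UMIs), which should lack these genes. A *Scnn1b* UMI was found in 52.1% of ionocyte-like cells (48.9% to 55.2%, median 2446 UMIs) and 1.30% of lymphoid-like cells, and after thinning to 1000 UMIs in 23% and 0.648%. For *Cftr* the shares were 24.9% and 0.162%, thinned 11.6% and 0 of 1234 cells (exact upper limit 0.298%). A *Slc9a3* UMI was found in 34.3% of Esp4-led cells (29.4% to 39.4%, median 2370 UMIs) and 0.162% of lymphoid-like cells, thinned 14.5% and 0.0810%. For *Slc13a2* the shares were 33.7% and 0.0810%, thinned 12.8% and 0.0810%. The 0 of 1234 cells for *Scnn1g* allows a lymphoid-like level of up to 0.0115 per 10000 by the same floor of 3 UMIs (0.0141 by the exact Poisson limit). The *Scnn1b* level of Esp4-led cells was 1.26 times that of lymphoid-like cells (0.518 to 2.93), so no *Scnn1b* above the background was detectable in them, whereas their *Cftr* level of 0.197 (0.126 to 0.294) was above the 0.00765 of lymphoid-like cells (2 UMIs) and the 0.0525 of myeloid-like cells (0.0294 to 0.0867), the highest of the named immune and stromal groups apart from the mixed cluster.

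Within 1 group, whether members of the same set shared cells was compared at full and at equal depth. Of Esp4-led cells with a *Slc9a3* UMI, 43.9% also had a *Slc13a2* UMI (35.0% to 53.1%), against 28.4% of those without (22.7% to 34.6%), at median depths of 2981 and 2136 UMIs. Thinned to 1000 UMIs the shares were 17.3% (8.23% to 30.3%) and 12.1% (8.63% to 16.2%), which overlap. Of the cells with either gene at full depth, 54 had both, 69 had *Slc9a3* alone and 67 had *Slc13a2* alone. Of ionocyte-like cells with a *Scnn1b* UMI, 40.7% also had a *Scnn1a* UMI against 30.0% of the others, and 16.2% against 14.1% after thinning. The same pair showed no common direction in the other groups: kallikrein duct-like cells were at 23.9% and 22.8%, and at 4.35% and 12.1% after thinning. Slit2-led cells were at 58.6% and 46.8%, and at 10.4% and 15.4% after thinning.

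Acinar cells had few UMIs of any member. Serous acinar-like cells (2297 cells, median 23931 UMIs) had 13 *Cftr* UMIs, 73 of *Scnn1a*, 44 of *Scnn1b*, 4 of *Scnn1g*, 6 of *Slc9a3* and 8 of *Slc13a2*. Per cell this was 0.0192 UMIs of *Scnn1b*, against 0.0138 in lymphoid-like and 0.818 in ionocyte-like cells. *Scnn1a* differed more per cell, at 0.0318 UMIs per serous acinar-like cell against 0.00324 per lymphoid-like cell, whose median depth was 1866.5 UMIs. Other non-epithelial groups were near the serous value, with 0.0346 per endothelial-like, 0.0345 per fibroblast-like and 0.0237 per myeloid-like cell. Per 10000 UMIs its serous and lymphoid-like levels overlapped, at 0.0116 (0.00906 to 0.0145) and 0.0153 (0.00417 to 0.0392). The endothelial-like, fibroblast-like and myeloid-like levels were higher, at 0.0940, 0.137 and 0.0911. Per cell, mucous acinar-like cells had 0.0806 and Dcpp acinar-like cells 0.0674 UMIs of *Scnn1a*, from 27 and 35 UMIs. Outside the epithelium, in myeloid-like, endothelial-like, fibroblast-like and Tagln-led cells, the *Scnn1b* level was between 0.108 and 0.140 and that of *Cftr* between 0 and 0.0525, and none of these groups exceeded 0.0540 for *Slc9a3* or *Slc13a2*.

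For comparison over all genes, the kallikrein and ionocyte duct clusters of the first clustering (2 clusters, 2214 cells, of which 10 were later Esp4-led) were set against the Esp4 duct cluster (544 cells, of which 345 were later Esp4-led and 185 Ecrg4-led) and against serous acinar-like cells. Of 10915 genes with at least 20 UMIs, 13.1% were at least 2-fold higher in the kallikrein and ionocyte clusters than in the Esp4 cluster, and 8.17% at least 2-fold higher in the Esp4 cluster. Of the members, 4 of 6 were in the first set, with log2 ratios of 4.33 for *Scnn1b* (3.79 to 4.94), 3.56 for *Scnn1a* (3.01 to 4.17), 3.46 for *Scnn1g* (1.88 to 5.76, from 117 and 3 UMIs) and 2.29 for *Cftr* (1.81 to 2.82). The other 2 were in the second set, with log2 ratios of -5.51 for *Slc9a3* (-6.27 to -4.84) and -6.26 for *Slc13a2* (-7.34 to -5.35). The median over all genes was 0.12. Mitochondrial UMIs moved with this division, at a median of 11.8% in the kallikrein and ionocyte clusters and 4.02% in the Esp4 cluster. In the cells with at most 5% mitochondrial UMIs (140 and 356 cells) the log2 ratios were 4.04 for *Scnn1b*, 2.86 for *Scnn1a*, 1.52 for *Cftr* (0.52 to 2.50) and -3.62 for *Slc9a3* (-5.51 to -2.23), all in the same direction.

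Against serous acinar-like cells the members' fold cannot be read by itself: 95% of 11401 genes were at least 2-fold higher in the kallikrein and ionocyte clusters, and 95.5% of 10479 in the Esp4 cluster, since 10 transcripts took 90.7% of the serous UMIs. With those 10 genes left out of the totals the shares were 23% and 25.4%. On that scale the kallikrein and ionocyte clusters were above serous acinar-like cells by log2 ratios of 5.38 for *Cftr* (4.6 to 6.3), 5.25 for *Scnn1b*, 4.66 for *Scnn1g* and 3.74 for *Scnn1a*. The Esp4 cluster was above them by 7.30 for *Slc9a3* (6.16 to 8.76) and 6.71 for *Slc13a2* (5.71 to 7.94). Of the 5 members with 20 UMIs in the Esp4 comparison, *Scnn1a* was the 1 that was not 2-fold higher on that scale.

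The 57 other transport genes, in 6 lists chosen with earlier results of these data known, are described by their counts in the same comparison of the kallikrein and ionocyte clusters with the Esp4 cluster. Of the 44 with at least 20 UMIs, 19 were at least 2-fold higher in the kallikrein and ionocyte clusters, 6 at least 2-fold higher in the Esp4 cluster and 19 neither, with a median log2 ratio of 0.89. Over all genes compared the shares were 13.1% and 8.17%, and the count of each list below is to be read beside them. Leaving the 10 secretory transcripts out of the totals lowered the log2 ratio of *Cftr* from 2.29 to 1.96 and that of *Scnn1b* from 4.33 to 4.00. The list counts were not recomputed on that scale, so calls near 2-fold, such as that of *Sgk1* below, depend on the total used.

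Of 9 measured regulators of ENaC and the mineralocorticoid response, 1 was at least 2-fold higher in the kallikrein and ionocyte clusters, which is near the 13.1% of all genes, and the list's median log2 ratio was 0.34. The gene was *Sgk1*, an aldosterone-induced kinase, at 1.20 (0.95 to 1.46). *Nr3c2* at 0.99 (0.45 to 1.57) and *St14*, a membrane protease gene, at 0.97 (0.73 to 1.21) lay just under 2-fold. At the low end was *Nedd4*, a ubiquitin ligase, at -0.90 (-1.04 to -0.76). *Sgk1* did not follow the ENaC genes inside the kallikrein and ionocyte cells: its level was 0.292 in ionocyte-like, 2.09 in Slit2-led and 2.99 in kallikrein duct-like cells, whereas *Nedd4l*, the ligase best known for taking ENaC off the membrane, stood at 1.05, 0.787 and 0.154. *Nr3c2*, the mineralocorticoid receptor gene, had 0.347, 0.362 and 0.208, and *Hsd11b2*, the enzyme gene that protects the receptor from glucocorticoids, had 1 UMI in 2214 cells.

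The other sodium-proton exchanger genes did not go with *Slc9a3*. All 4 that were measured were at least 2-fold higher in the kallikrein and ionocyte clusters, with log2 ratios from 1.44 (*Slc9a8*, 0.54 to 2.49) to 4.74 (*Slc9a2*, 2.87 to 7.80) and a median of 2.88. *Slc9a2*, the gene of the apical exchanger NHE2, was at 0.403 in ionocyte-like cells and 0.00823 in Esp4-led cells. The relatives of *Slc13a2*, *Slc13a1*, *Slc13a3*, *Slc13a4* and *Slc13a5*, had 0 UMIs in both sets of clusters.

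With a median log2 ratio of -0.62, bicarbonate and scaffold genes had 1 of 10 measured genes at least 2-fold higher in the kallikrein and ionocyte clusters. That is near the 13.1% of all genes. Another 3 were at least 2-fold higher in the Esp4 cluster, against 8.17% of all genes. The first was *Slc4a11*, at 4.24 (3.80 to 4.71), and its place in this list does not show that its product carries bicarbonate. The 3 others were the carbonic anhydrase genes *Car2* at -3.80 (-4.02 to -3.58) and *Car12* at -1.30, and *Slc9a3r1*, the gene of the scaffold NHERF1 that binds NHE3 and CFTR, at -1.02 (-1.25 to -0.80). *Car2* was highest in Esp4-led cells, at 5.70 against 0.0554 in ionocyte-like cells. *Slc26a4* and *Pdzk1* had 0 UMIs in both.

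Of 15 measured genes of the sodium pump and of chloride and potassium channels, 9 were at least 2-fold higher in the kallikrein and ionocyte clusters and 2 in the Esp4 cluster, with a median log2 ratio of 2.67. The lowest ratio was that of *Kcnn4*, a calcium-activated potassium channel gene, at -2.40 (-2.87 to -1.93). Its level was 0.464 in the Esp4 cluster and 0.913 in serous acinar-like cells. The 10 most abundant, secretory transcripts held 28.3% of the UMIs of the Esp4 cluster and 9.41% of those of the kallikrein and ionocyte clusters. The part of acinar RNA in the *Kcnn4* ratio was not tested. The potassium channel genes *Kcnj16* and *Kcnq1* were lower in ionocyte-like than in kallikrein duct-like cells, with levels of 0.0333 and 0.403 per 10000 for *Kcnj16* and of 0.0739 and 0.356 for *Kcnq1*.

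Proton pump subunits of the ionocyte type were at least 2-fold higher in the kallikrein and ionocyte clusters for 3 of 4 measured genes, with a median log2 ratio of 4.03, from *Atp6v1b1* at 0.85 (0.49 to 1.22) to *Atp6v1g3* at 5.90 (3.41 to 11.21, with 1 UMI in the Esp4 cluster). The 2 genes of acinar chloride secretion went apart. *Slc12a2*, the basolateral NKCC1 cotransporter gene, was at 33.4 per 10000 in ionocyte-like cells, 1.88 in kallikrein duct-like and 6.46 in Esp4-led cells, and *Ano1*, the calcium-activated chloride channel gene, at 0.0222, 0.0201 and 2.17.

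**Figure D4:**
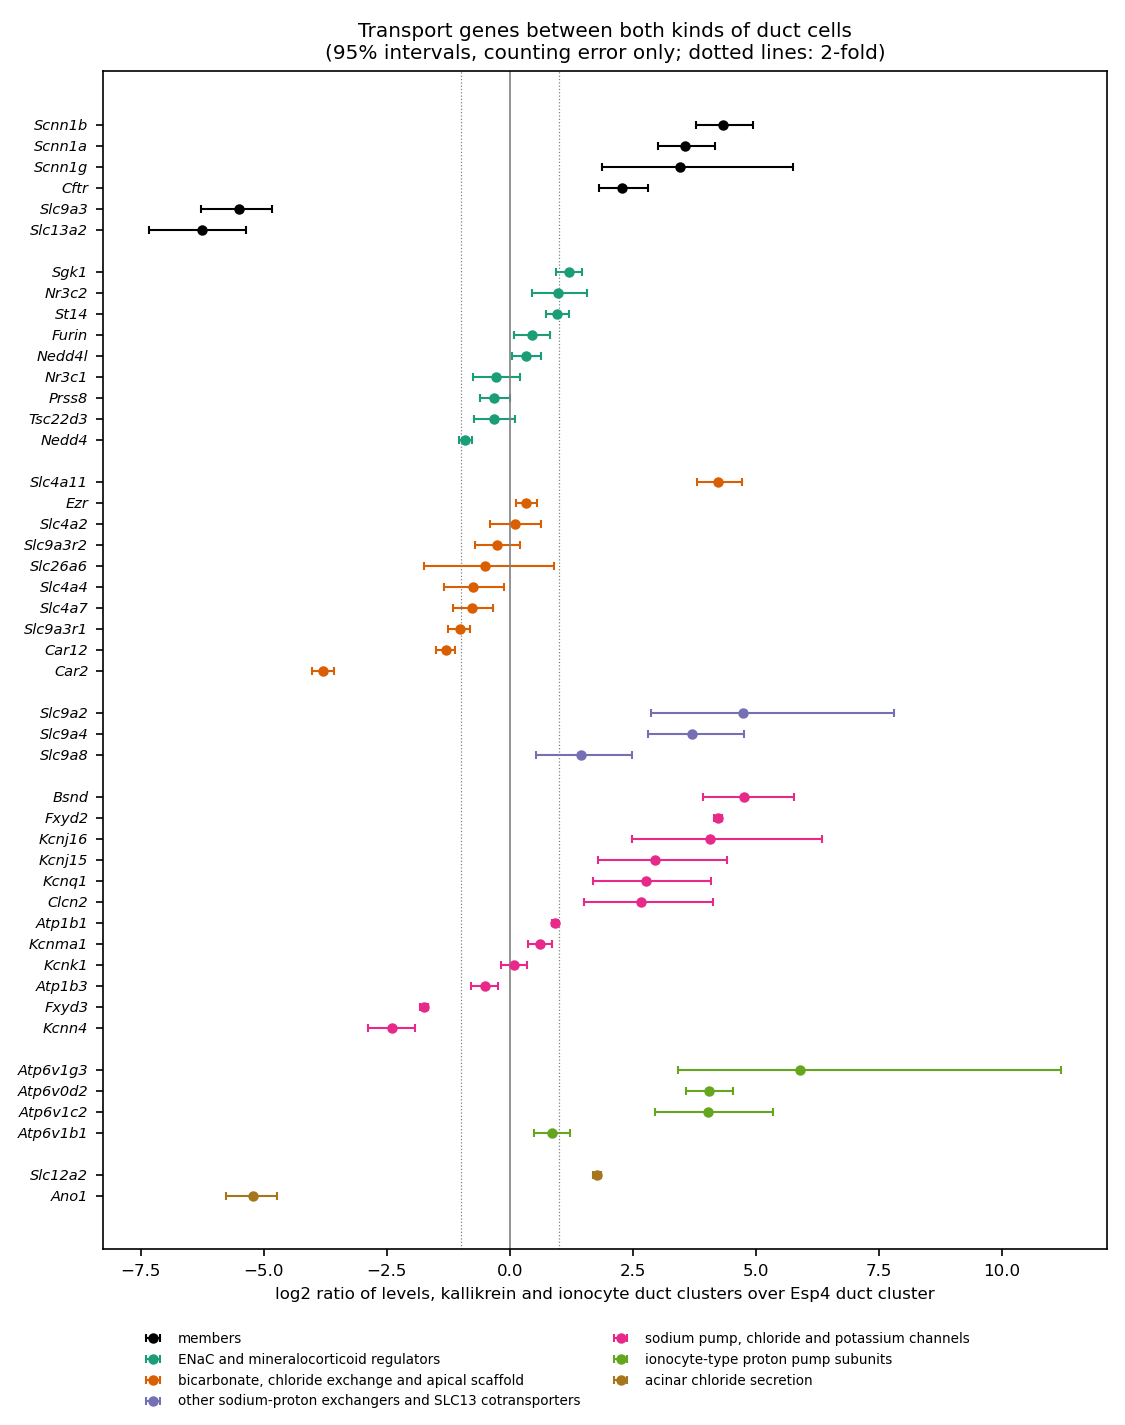
Log2 ratio of levels (x axis) of the members (black) and 40 of the 44 genes of the 6 transport lists with at least 20 UMIs (colours), kallikrein and ionocyte duct clusters over Esp4 duct cluster, with 95% intervals that cover counting error only and dotted lines at 2-fold. The members lie on both sides, from -6.26 for *Slc13a2* to 4.33 for *Scnn1b*, and *Slc9a2* (4.74) and *Atp6v1g3* (5.90) lie above *Scnn1b*. *Ano1* (-5.22) and *Car2* (-3.80) are on the side of *Slc9a3* and *Slc13a2*.

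Across the 23 groups, the members formed the same sets by the Pearson correlation of log2(level + 0.05), given as a description over groups that share 1 matrix and its free RNA. *Cftr* had r = 0.942 with *Scnn1a*, 0.930 with *Scnn1b* and 0.855 with *Scnn1g*, but 0.217 with *Slc9a3* and 0.116 with *Slc13a2*, and *Slc9a3* had r = 0.932 with *Slc13a2*. Among 11235 genes with at least 100 UMIs, the 3 most like *Cftr* were *Mal* (0.980), *Pde1c* (0.970) and *Wdr72* (0.968). *Cwh43* (0.974), *Tmem52* (0.965) and *Elovl7* (0.963) were the most like *Scnn1a*. *Atp6v0d2* (0.980) and *Cwh43* (0.970) were among the 3 most like *Scnn1b*, and for *Scnn1g* the 3 were *Scnn1a* (0.948), *Cwh43* (0.944) and *Zbtb7c* (0.937). *Esp4* (0.971), *Clic6* (0.953) and *Slc13a2* were nearest to *Slc9a3*, and *Clic6* (0.95), *Slc9a3* and *Pir* (0.920) to *Slc13a2*.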

How the data were processed

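The authors deposited 1 matrix of UMI counts, made with Cell Ranger 6.0.1 on mm10 per the submitters' processing notes from 10x Genomics libraries of transcript 3′ ends. The values are not normalized. Those notes also name Seurat 4.1.1. The labels name 2 mice, from which the study's methods differ. The matrix was treated as 1 sample, so no test was run.

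All 15707 barcodes were kept, with 1374 to 141509 UMIs each. Counts were log-normalized (scale factor 10000) and clustered in Seurat 5.3.0 (R 4.3.3) on 2000 variable genes less 25 that were members or transport list genes, with 20 principal components at a resolution of 0.5. Duct clusters were clustered again in the same way. The members, the lists, the groups given ratios, the motifs and the rules were chosen with earlier results of these data known. A marker counted when at least 25% of the cells had a UMI and its level exceeded that of all other cells, and a name needed 3 markers. A limit of 500 median genes, under which clusters stayed unnamed, and the names by leading gene were set after seeing the data. For the comparison of clusters, a duct cluster needed 8 luminal duct markers, and counted as kallikrein and ionocyte with 5 markers of either list and as Esp4 with 3 intercalated duct markers. Scrublet (scanpy 1.11.5) called 0 doublets among 15707 barcodes, which was taken as no usable call. None were removed, and only the order of its scores was used.

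Levels carry exact Poisson intervals, shares exact binomial ones and ratios those of the exact conditional binomial, at 95%. They cover counting error only. Cells were thinned to 500 and 1000 UMIs, and no cell was shallower. Named genes were the members, the ends of each transport list, leading genes of duct groups and the 3 genes most like each member. *Sgk1*, *Nedd4l*, *Nr3c2*, *St14*, *Hsd11b2*, *Kcnj16*, *Kcnq1*, *Car12*, *Slc9a3r1* and the relatives of the members in their lists were named after their values were seen. The values of 4 transport genes are not reported here, and they count only in the totals of their lists. Ratios were tested on simulated data with known folds. Intervals were computed in scipy 1.17.1, sums in pandas 2.3.3 and numpy 2.4.6 under Python 3.11.15, and plots in matplotlib 3.10.9. Alternatives were other resolutions and component numbers, the members and transport genes kept in the clustering, a filter that left 14849 cells, totals without the 10 most abundant genes, mean UMIs per cell, subtraction of free RNA (538 UMIs per droplet, from *Mucl2* in lymphoid-like cells) and the 10% highest doublet scores left out. A limit of 5% mitochondrial UMIs was added after seeing the data.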

Additional observations from a re-analysis of the deposited data

How the results depend on the processing

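Of 128 values recomputed, the log2 ratios of the 6 members between the kallikrein and ionocyte clusters and the Esp4 cluster, and between either and serous acinar-like cells, none changed direction, 101 stayed within the interval of the value reported and 27 moved outside it. At a resolution of 0.8 the *Scnn1b* ratio between duct clusters was 4.96, and with 30 components 5.07, with 7.81 over serous acinar-like cells. With 10 components the *Slc9a3* ratio between duct clusters was -4.80 and the *Slc13a2* ratio over serous acinar-like cells 8.65. With the filter on cells the *Cftr* ratio between duct clusters was 1.80. Without the 10 most abundant genes the ratios over serous acinar-like cells were 5.38 (*Cftr*), 3.74 (*Scnn1a*), 5.25 (*Scnn1b*), 4.66 (*Scnn1g*), 7.30 (*Slc9a3*) and 6.71 (*Slc13a2*), and as mean UMIs per cell 5.64, 4.01, 5.51, 4.92, 7.42 and 6.83 in the same order. With free RNA taken away they were 7.40 (*Scnn1a*), 10.56 (*Scnn1b*) and 11.83 (*Slc9a3*). With at most 5% mitochondrial UMIs, chosen after seeing the data, the ratios between duct clusters were 1.52 (*Cftr*), 2.86 (*Scnn1a*) and -3.62 (*Slc9a3*), and over serous acinar-like cells 7.53 (*Cftr*), 6.18 (*Scnn1a*) and 8.03 (*Scnn1b*). No ratio between duct clusters could be given for *Scnn1g* at a resolution of 0.8, with 30 components and with the filter, or for *Slc13a2* with the mitochondrial limit, since 1 side had 0 UMIs. The cause of these moves was not tested, except that the totals of serous acinar-like cells lie mostly in the 10 genes left out. With 1 sample, the spread between mice is not known, SMG and SLG cannot be told apart, and *Scnn1g*, with 173 UMIs, is limited by depth.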
